A study of Rattus norvegicus with 6 samples.

Results

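The 10 genes described here encode enzymes that make or remove superoxide, hydrogen peroxide, lipid peroxides and nitric oxide: the superoxide dismutases *Sod1*, *Sod2* and *Sod3*, the catalase *Cat*, the glutathione peroxidases *Gpx1*, *Gpx3* and *Gpx4*, the peroxiredoxins *Prdx1* and *Prdx3*, and the inducible nitric oxide synthase *Nos2*. They were taken by gene symbol from a deposited count table of 34156 genes, and each of the 10 symbols had 1 row there. The counts came from rat RA-FLS, fibroblast-like synoviocytes used as a culture model of rheumatoid arthritis and bought from a single vendor. Each of the 6 libraries was from wild-type (WT) cells given TNF-α, an inflammatory cytokine of the arthritic joint, at 10 ng/ml. In 3 of them, the TNF-α+EMO group, the cells also received emodin (EMO), an anthraquinone from rhubarb, at 80 μmol/L, and the other 3 formed the TNF-α group. The labels give day 5 for every library, while the study's methods describe an incubation of 1 day. No library from cells without TNF-α was analysed here, so each difference below is between TNF-α with EMO and TNF-α alone.

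Superoxide dismutases convert superoxide into hydrogen peroxide, with SOD1 mainly in the cytosol, SOD2 in mitochondria and SOD3 outside the cell. Catalase breaks hydrogen peroxide down in peroxisomes, glutathione peroxidases reduce it (and GPX4 lipid hydroperoxides) with glutathione, and peroxiredoxins reduce it with electrons from thioredoxin. NOS2 makes nitric oxide from arginine and is a well-known target of inflammatory signaling, as is *Sod2*, and nitric oxide reacts with superoxide to give peroxynitrite.

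The promoters of *Prdx1* and *Prdx3*, which rose together, are shown with those of *Sod1* and *Sod2*, which moved in opposite directions. Each is the RefSeq window of 300 bases (250 before and 50 from the annotated transcript start) on the gene's own strand in the GRCr8 build, written 5′ to 3′. Of the 10 genes, 8 had such a window, while *Sod3* and *Nos2* had no entry. Capitals mark matches on either strand to the core of the antioxidant response element (TGACNNNGC), the AP-1 site (TGANTCA), the CCAAT box (CCAAT), the TATA box (TATAAA) or the NF-kB site. The windows are *Prdx1* at chr5:135383656-135383955 (plus strand), *Prdx3* at chr1:270000062-270000361 (minus strand), *Sod1* at chr11:42942573-42942872 (plus strand) and *Sod2* at chr1:50050119-50050418 (minus strand).
Prdx1: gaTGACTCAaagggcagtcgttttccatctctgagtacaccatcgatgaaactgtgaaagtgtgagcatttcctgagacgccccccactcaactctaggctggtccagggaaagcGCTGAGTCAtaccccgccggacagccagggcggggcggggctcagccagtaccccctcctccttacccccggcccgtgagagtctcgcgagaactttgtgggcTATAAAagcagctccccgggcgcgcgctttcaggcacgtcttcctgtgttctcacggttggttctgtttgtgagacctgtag
Prdx3: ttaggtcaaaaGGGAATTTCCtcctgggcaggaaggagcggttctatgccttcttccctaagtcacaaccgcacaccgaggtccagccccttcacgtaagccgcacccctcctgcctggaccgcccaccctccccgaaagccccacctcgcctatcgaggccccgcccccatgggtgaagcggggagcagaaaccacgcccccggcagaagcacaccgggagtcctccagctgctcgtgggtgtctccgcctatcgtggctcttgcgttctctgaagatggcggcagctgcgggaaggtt
Sod1: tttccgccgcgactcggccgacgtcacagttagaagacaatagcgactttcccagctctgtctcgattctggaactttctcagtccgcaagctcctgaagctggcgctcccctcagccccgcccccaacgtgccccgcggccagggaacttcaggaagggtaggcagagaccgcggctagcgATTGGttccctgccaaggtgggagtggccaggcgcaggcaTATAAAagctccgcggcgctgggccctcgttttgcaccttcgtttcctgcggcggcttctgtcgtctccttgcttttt
Sod2: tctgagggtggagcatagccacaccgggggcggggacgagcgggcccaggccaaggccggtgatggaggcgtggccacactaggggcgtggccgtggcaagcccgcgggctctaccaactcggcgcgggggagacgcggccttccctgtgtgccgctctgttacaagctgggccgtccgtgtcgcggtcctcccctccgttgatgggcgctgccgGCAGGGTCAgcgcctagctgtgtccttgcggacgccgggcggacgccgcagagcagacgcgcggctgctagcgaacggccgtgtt
In *Prdx1* the antioxidant response element core, which began at position -135 from the start, overlapped an AP-1 match at -133, and another AP-1 match began at -248. *Sod2* held that core at -35 and *Prdx3* an NF-kB match at -239. *Sod1* held a CCAAT box at -68 and a TATA box at -28, and *Prdx1* a TATA box at -32. Among 33469 RefSeq promoters of the same length, the antioxidant response element core was present in 12.1%, the AP-1 site in 7.33%, the NF-kB site in 4.18%, the CCAAT box in 37.5% and the TATA box in 14.2%. In the *Cat* window, which is not shown, 5 CCAAT matches were found. These are matches of letters in a short window and were not tested for binding.

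Library totals were 16813322 to 17794455 counts. Each gene that reached 10 counts in 3 or more libraries was tested with edgeR's quasi-likelihood test, and a gene is called changed at an adjusted p under 0.05. Normalized counts are counts scaled to a common library size and serve to compare a gene between groups, and levels of different genes are compared only as normalized counts per kilobase of gene length. The TNF-α and TNF-α+EMO groups were far apart: of 13614 genes tested, 39.4% were called higher and 41.4% lower with EMO. Synovial fibroblast markers differed as well, their summed CPM (counts scaled to a common library total) being 12757 to 13785 with TNF-α and only 1988 to 2130 with EMO. The sum came mostly from *Col1a1* and *Vim* with TNF-α and mostly from *Vim* (30071, 32836 and 31949 counts) with EMO. Of 14 such markers 13 were in the table. Of these 12 exceeded 3 counts in some TNF-α library and 8 in some TNF-α+EMO library, and *Pdpn* did so in none. Among the 12, *Thy1* (7, 6 and 3 counts with TNF-α) and *Prg4* (4, 3 and 4) were near that limit and had no counts with EMO. Of 10 markers tested, 9 fell and 1, *Dcn*, rose. *Dcn* had 0, 4 and 1 counts with TNF-α and 33, 24 and 26 with EMO, so it passed the filter through the TNF-α+EMO libraries alone. *Lum* and *Fap* passed it through the TNF-α libraries alone. Among those that fell were *Lum* (235, 263 and 244 counts with TNF-α, none with EMO), *Col3a1* (log2 fold change -8.76) and *Col6a1* (-6.60). Macrophage markers summed to 72.8 to 78.7 CPM with TNF-α and 42.1 to 45.1 with EMO. Of 11 listed, 3 were tested, with 1 lower, *Cd14* (log2 fold change -1.10), and 2 higher, *Cd68* (0.75) and *Itgam* (1, 0 and 0 counts with TNF-α, 12, 10 and 14 with EMO, so that it passed the filter through that group alone). *Itgam* shares 21211 bases with *Itgax* on the same strand, which had 461 to 1763 counts, and which of them the reads came from was not tested. The markers *Ptprc*, *Adgre1*, *Cd163*, *C1qa* and *Marco* stayed at or under 3 counts in every library. Endothelial markers summed to 4.24 to 4.59 and 0.899 to 1.28 CPM, with 1 tested and lower. This was *Vwf* (54, 56 and 54 counts with TNF-α, 9, 2 and 2 with EMO), which passed the filter through the TNF-α libraries alone. Epithelial markers summed to 601 to 660 and 112 to 129, mostly from *Krt8* (-2.28), with 2 tested, 1 higher and 1 lower, and *Epcam* and *Krt18* at or under 3 counts. The higher marker, *Cldn4*, had no counts with TNF-α and 16, 17 and 28 with EMO, so it passed the filter through the TNF-α+EMO libraries alone. The part of these shifts in the results below was not tested, and in bulk RNA fewer cells of a type and less RNA per cell cannot be told apart. The study's methods call the 3 libraries of a group biological replicates, and the labels do not say whether they came from separate cultures, so p-values measure the spread between these libraries.

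The 8 tested genes were divided, with members of the same enzyme family and of the same compartment on both sides. *Sod1*, *Cat*, *Prdx1* and *Prdx3* were higher with EMO by 2.26 to 2.56-fold, while *Sod2*, *Sod3* and *Gpx1* were lower by 1.75 to 18.6-fold. *Nos2* was counted only in the TNF-α libraries. *Gpx3* and *Gpx4* were at 16 counts or fewer in each library and were not tested. Of the 8 genes that passed the low-count filter 4 were called higher and 4 lower, beside the 39.4% and 41.4% of all genes. The median log2 fold change of the 8 was 0.18, also with *Nos2* set to its bound, and that of all genes -0.01. With the additional threshold of a 2-fold difference, 4 of the 8 were higher and 3 lower, against 19.5% and 27.8% of all genes. The normalized counts of the groups did not overlap for any of the 8, as for 82.9% of all genes, so separation of the groups is not particular to these enzymes. *Nos2* passed the filter through the TNF-α libraries alone and so had to differ.

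**Figure D1:**
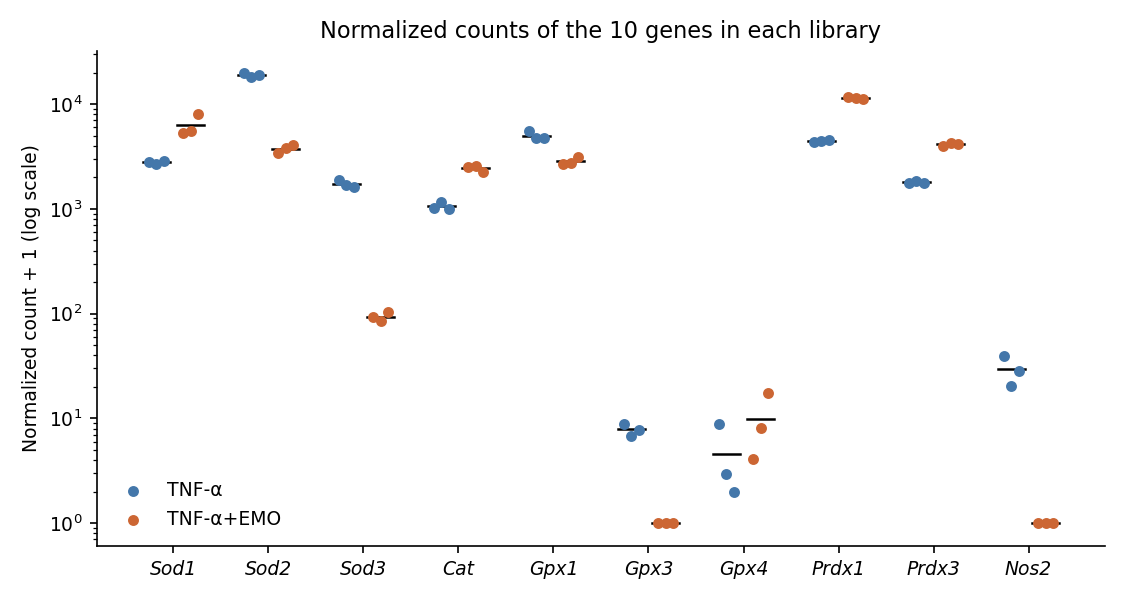
Normalized count plus 1 of each of the 10 genes (log axis) in the 3 TNF-α libraries (blue) and the 3 TNF-α+EMO libraries (orange), with black lines at the group means. Sod1, Cat, Prdx1 and Prdx3 sit higher with EMO, Sod2, Sod3 and Gpx1 lower, Gpx3 and Nos2 fall to 0 counts (drawn at 1), and the Gpx4 points overlap.

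The 3 superoxide dismutases did not move together. *Sod1* (ENSRNOG00000002115, chr11:30363280-30368862 in Rnor_6.0, plus strand), the cytosolic copper and zinc enzyme, had 2846, 2752 and 2956 counts with TNF-α and 5130, 5371 and 7932 with EMO. All TNF-α+EMO libraries lay above all TNF-α libraries, and the third TNF-α+EMO library stood above the other two. Normalized counts were 2785 ± 98.2 (SD, n = 3) and 6289 ± 1554 (SD, n = 3). The log2 fold change was 1.18 (SE 0.17, 2.26-fold) with an adjusted p of 4.6e-04 by edgeR's quasi-likelihood test. Without TNF-α+EMO replicate 3 it was 0.95, still called higher and no longer past 2-fold.

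*Sod2* (ENSRNOG00000019048, chr1:47914759-47921587, minus strand), the manganese enzyme of mitochondria, had 20101, 18762 and 19436 counts with TNF-α and 3302, 3725 and 3976 with EMO. The TNF-α libraries were all high and the TNF-α+EMO libraries all low, with no overlap. Normalized counts went from 18982 ± 712 (SD, n = 3) to 3756 ± 326 (SD, n = 3), a log2 fold change of -2.34 (SE 0.07, 5.05-fold lower) with an adjusted p of 2.4e-10 by edgeR's quasi-likelihood test. Per kilobase, *Sod2* was the most abundant of the 10 genes with TNF-α.

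*Sod3* (ENSRNOG00000003869, chr14:60958592-60964324, minus strand), the secreted enzyme that binds the matrix, showed the lowest ratio of EMO to TNF-α among the genes counted in both groups. Its counts were 1919, 1715 and 1668 with TNF-α and 89, 82 and 100 with EMO, and the groups were widely separated. Normalized counts were 1727 ± 137 (SD, n = 3) and 92.5 ± 9.0 (SD, n = 3). The log2 fold change was -4.22 (SE 0.11, 18.6-fold lower) with an adjusted p of 4.7e-11 by edgeR's quasi-likelihood test.

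The mixture of superoxide dismutase transcripts differed between the groups, while their sum did not separate them. Summed over the 3 genes, normalized counts per kilobase were 14446 ± 490 (SD, n = 3) with TNF-α and 11461 ± 2505 (SD, n = 3) with EMO, and the exact two-sided permutation test gave p = 0.2. The TNF-α+EMO sums were 9770, 10274 and 14339, and the last of these lay within the range of the TNF-α libraries. *Sod1* held 29.4% ± 0.85 (SD, n = 3) of the sum with TNF-α and 83.3% ± 2.28 (SD, n = 3) with EMO. *Sod2* held 63.7% ± 0.44 (SD, n = 3) and 16.2% ± 2.23 (SD, n = 3), so the mitochondrial form was the main dismutase transcript with TNF-α and the cytosolic form with EMO. *Sod3* held 6.91% ± 0.42 (SD, n = 3) and 0.476% ± 0.066 (SD, n = 3). For each share the groups did not overlap, and the exact permutation p of 0.1 is the smallest that 3 against 3 libraries allow. Neither the sum nor the shares were adjusted for each library's trend over gene length, which is given below. With that adjustment *Sod1* was only 1.43-fold higher and *Sod2* was 5.72-fold lower, and the sum was not calculated again.

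**Figure D2:**
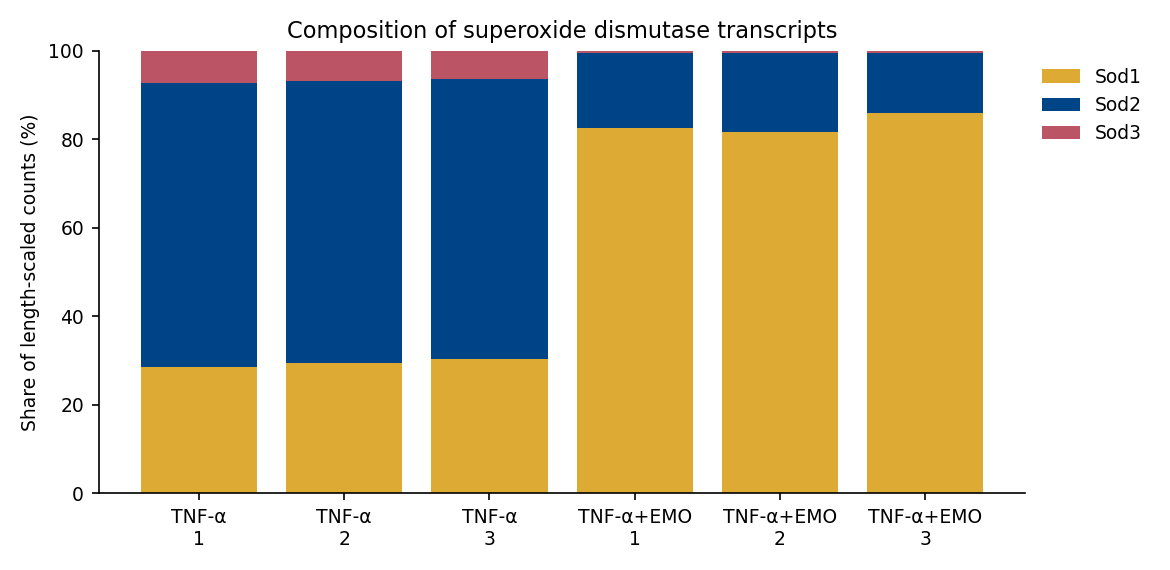
Share of Sod1, Sod2 and Sod3 in the summed counts per kilobase of the 3 genes (percent, axis from 0 to 100) in each of the 6 libraries. Sod2 holds 63.3% to 64.1% in the TNF-α libraries and 16.2% on average in the TNF-α+EMO libraries, where Sod1 holds 81.5% to 85.9%.

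Factors that deliver metals to these enzymes were examined from a list of 12 genes for metal supply and for import into organelles, of which 11 were in the table and 10 were tested. With EMO 4 were called higher, 2 lower and 4 were not called, beside 39.4% and 41.4% of all genes called higher and lower. The median log2 fold change of the list was 0.18. *Ccs*, the copper chaperone of SOD1, had 1402, 1160 and 1318 counts with TNF-α and 2217, 2813 and 4077 with EMO. As for *Sod1*, the third TNF-α+EMO library was the highest and the groups did not overlap. Its log2 fold change was 1.30 (SE 0.24) with an adjusted p of 0.0038 by edgeR's quasi-likelihood test, and 1.03 without that library. *Slc31a1*, the copper importer of the plasma membrane, was higher (log2 fold change 1.10), and *Slc39a14*, a carrier of zinc, iron and manganese, was lower (-1.94). *Pex14*, a docking protein for import into peroxisomes, was higher (0.96). *Pex13*, another part of that docking complex, differed by -0.19, with an adjusted p of 0.046 by edgeR's quasi-likelihood test that rose to 0.076 with DESeq2.

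Among the enzymes that remove hydrogen peroxide, catalase and both peroxiredoxins rose and *Gpx1* fell. *Cat* (ENSRNOG00000008364, chr3:93379874-93412058, minus strand) had 1033, 1190 and 1019 counts with TNF-α and 2445, 2515 and 2192 with EMO. The TNF-α+EMO libraries were all higher, without overlap. Normalized counts were 1055 ± 91.5 (SD, n = 3) and 2443 ± 184 (SD, n = 3), a log2 fold change of 1.21 (SE 0.08, 2.31-fold) with an adjusted p of 1.3e-07 by edgeR's quasi-likelihood test.

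*Prdx1* (ENSRNOG00000017194, chr5:135536413-135551990, plus strand), the peroxiredoxin of the cytosol, had 4445, 4554 and 4713 counts with TNF-α and 11293, 11196 and 10998 with EMO. The 3 libraries of each group lay close together and the groups were far apart. Normalized counts were 4464 ± 117 (SD, n = 3) and 11436 ± 223 (SD, n = 3), and the log2 fold change was 1.36 (SE 0.05, 2.56-fold) with an adjusted p of 1.6e-09 by edgeR's quasi-likelihood test. *Prdx3* (ENSRNOG00000010958, chr1:282238773-282251257, minus strand), the peroxiredoxin of mitochondria, had 1808, 1877 and 1831 counts with TNF-α and 3895, 4160 and 4074 with EMO. Here too the groups were tight and separate. Its log2 fold change of 1.21 (SE 0.06, 2.31-fold) had an adjusted p of 5.8e-09 by edgeR's quasi-likelihood test. The sum of the 2 transcripts per kilobase was 6233 ± 134 (SD, n = 3) with TNF-α and 15658 ± 224 (SD, n = 3) with EMO, or 2.51 times as high. It was not adjusted for each library's trend over gene length, which is given below. With that adjustment *Prdx1* was 1.76-fold and *Prdx3* 1.80-fold higher, and the sum was not calculated again. *Prdx1* held 80.6% ± 0.48 (SD, n = 3) and 82.2% ± 0.61 (SD, n = 3) of that sum, so its share moved by 1.60 percentage points (exact permutation p = 0.1, the smallest possible). This share covers *Prdx1* and *Prdx3* only and not the other peroxiredoxins of these compartments. Per kilobase, *Prdx5* (mitochondria and peroxisomes) went from 4767 ± 75.9 (SD, n = 3) with TNF-α to 30241 ± 5306 (SD, n = 3) with EMO. Of the other cytosolic forms, *Prdx2* went from 5741 ± 163 to 3238 ± 156 and *Prdx6* from 1162 ± 48.6 to 2207 ± 135. *Prdx3* and *Sod2*, both encoding enzymes of the mitochondrion, moved in opposite directions.

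*Gpx1* (ENSRNOG00000048812, chr8:117117430-117118522, plus strand), the glutathione peroxidase of cytosol and mitochondria, had 5613, 4846 and 4862 counts with TNF-α and 2573, 2674 and 3092 with EMO. The TNF-α+EMO libraries were all lower. Normalized counts went from 4989 ± 447 (SD, n = 3) to 2847 ± 266 (SD, n = 3), a log2 fold change of -0.81 (SE 0.08, 1.75-fold lower) with an adjusted p of 4.8e-06 by edgeR's quasi-likelihood test. It was the only one of the 8 tested genes that did not pass the 2-fold threshold.

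*Gpx3* (ENSRNOG00000052564, chr10:40247436-40255422, plus strand), the secreted glutathione peroxidase, had 8, 6 and 7 counts with TNF-α and none with EMO. With the limit of 3 counts per library that a count of 0 allows, it was at least 2.23-fold lower, and the exact permutation p was 0.1, the smallest possible. This limit covers counting error only. *Gpx4* (ENSRNOG00000013604, chr7:12516352-12519154, minus strand), which protects membranes from lipid peroxidation, had 8, 2 and 1 counts with TNF-α and 3, 7 and 16 with EMO. The groups overlapped (exact permutation p = 0.3), and no difference was detectable at these counts. Of its 2803 bases 2303 are shared with *Sbno2* on the opposite strand, which had 821 to 2239 counts, and whether counting kept the strands apart is not given in the sources used here. Whether reads of *Gpx4* were lost to this overlap was not tested, so its counts may not give its level. With the counts as deposited, *Gpx1* made up 99.9% of the sum per kilobase of the 3 glutathione peroxidases in both groups.

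The order of levels per kilobase changed with EMO. In the TNF-α group it ran from *Sod2* (9201 ± 345, SD, n = 3) through *Gpx1* (5715 ± 512), *Prdx1* (5021 ± 132), *Sod1* (4245 ± 150), *Prdx3* (1212 ± 20.5) and *Sod3* (999 ± 79.3) to *Cat* (416 ± 36.0), with *Gpx3* (4.66 ± 0.68), *Nos2* (4.24 ± 1.41) and *Gpx4* (2.04 ± 2.11) at the end. The last 3 did not differ from each other beyond their spread. In both groups the level of *Gpx4* carries the limit from its overlap with *Sbno2* given above. In the TNF-α+EMO group *Prdx1* came first (12864 ± 251, SD, n = 3), then *Sod1* (9587 ± 2369), *Gpx1* (3261 ± 304), *Prdx3* (2794 ± 80.9), *Sod2* (1821 ± 158), *Cat* (962 ± 72.3), *Sod3* (53.5 ± 5.21) and *Gpx4* (5.02 ± 3.84). The spread of *Sod1*, set by the third library, reached close to the level of *Prdx1*.

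Of 9 other peroxidases, 6 were tested, 2 of them called higher and 4 lower, with a median log2 fold change of -0.71. Over all genes 39.4% were called higher and 41.4% lower. *Prdx5*, a peroxiredoxin of mitochondria and peroxisomes, had 3975, 4047 and 3925 counts with TNF-α and 20116, 23418 and 28783 with EMO. Its TNF-α+EMO libraries were all far above the TNF-α libraries, with a log2 fold change of 2.67 (SE 0.12) and an adjusted p of 2.4e-08 by edgeR's quasi-likelihood test. *Prdx6*, which also has phospholipase activity, was higher (0.92). The cytosolic *Prdx2* was lower (log2 fold change -0.83), unlike its close relative *Prdx1*. The 3 peroxidases of the endoplasmic reticulum were all lower, with log2 fold changes of -1.26 for *Prdx4*, -1.71 for *Gpx7* and -0.59 for *Gpx8*. The peroxiredoxins with mitochondrial forms (*Prdx3* and *Prdx5*) rose, the members of the endoplasmic reticulum fell, and the cytosolic ones went both ways.

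**Figure D3:**
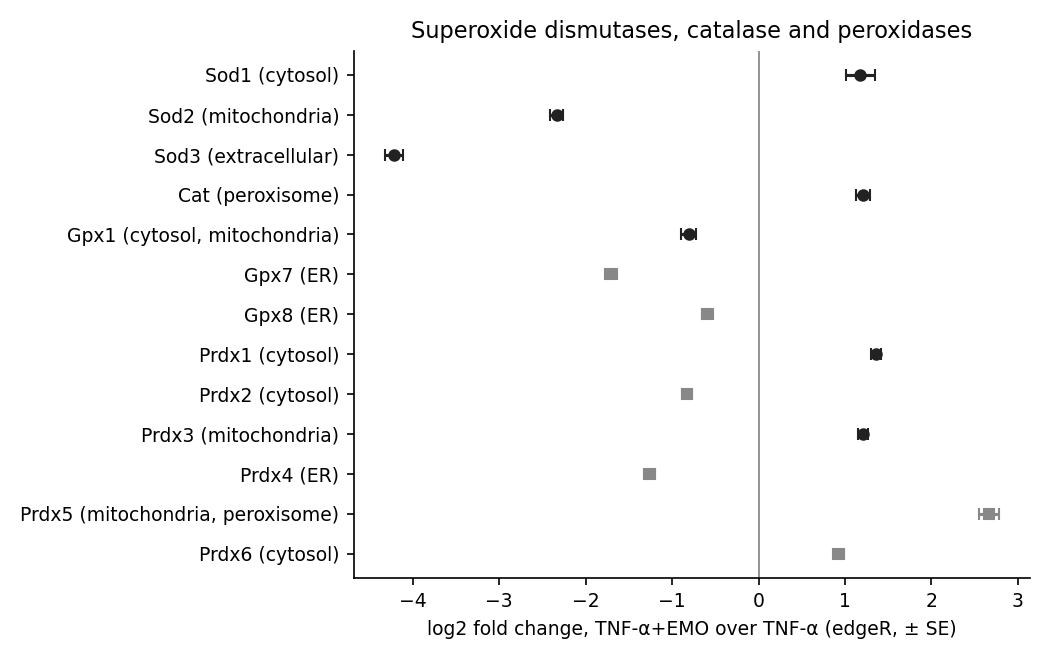
The log2 fold change of TNF-α+EMO over TNF-α (edgeR, bars are 1 SE, hidden where smaller than the symbol) for the dismutases, catalase, glutathione peroxidases and peroxiredoxins that were tested, each with its main compartment. Black circles are 7 of the 10 genes described and grey squares are other peroxidases, and the points run from -4.22 for Sod3 to 2.67 for Prdx5.

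The peroxiredoxins depend on thioredoxin and the glutathione peroxidases on glutathione. Of 17 genes for the supply of both, 15 were in the table and all 15 were tested. With EMO 10 of them were called higher and 5 lower, beside 39.4% and 41.4% of all genes, with a median log2 fold change of 0.57. *Sesn2*, a stress-induced sestrin, had 596, 572 and 557 counts with TNF-α and 12182, 11737 and 12390 with EMO (log2 fold change 4.46), whereas its relative *Sesn1* was lower (-1.38). The thioredoxin reductases *Txnrd1* (log2 fold change 0.62) and *Txnrd3* (2.61) were higher. *Slc7a11*, the cystine importer that feeds glutathione synthesis, was higher (2.22), and *Gsr*, which regenerates glutathione, was lower (-0.56). Thioredoxin itself differed by compartment: *Txn1*, the cytosolic form, was lower (-0.68), and *Txn2*, the mitochondrial form, was higher (1.43). *Nnt*, which supplies mitochondrial NADPH, was lower (-1.37). *Srxn1*, which repairs overoxidized peroxiredoxins, was not analysed here.

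Glutathione peroxidases 1, 3 and 4 are selenoproteins. Of 10 genes for selenium supply and selenocysteine insertion, 10 were tested, 3 called higher, 3 lower and 4 not called, with a median log2 fold change of -0.01. The shares over all genes were 39.4% higher and 41.4% lower. *Trnau1ap* (1.72), *Secisbp2* (1.66) and *Sepsecs* (0.98), which act in selenocysteine synthesis or insertion, were higher. *Sephs1* (-1.25) and *Sephs2* (-1.02), named as selenophosphate synthetases, were lower. *Selenop*, the secreted selenium carrier, had 608, 644 and 552 counts with TNF-α and 17, 7 and 17 with EMO (log2 fold change -5.38), with a wide gap between the groups.

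Among the enzymes that produce superoxide or peroxide, 21 genes were listed, 20 were in the table and 10 were tested. Of these 2 were called higher, 7 lower and 1 not called, beside 39.4% and 41.4% of all genes called higher and lower. The median log2 fold change of the list was -1.81. *Nox4* and *Duox2*, among the 7, passed the low-count filter through the TNF-α libraries alone, so their counts had to be lower with EMO. *Nox1*, also among the 7, had 106, 91 and 90 counts with TNF-α and 11, 1 and 3 with EMO, so it passed mainly through the TNF-α libraries. The count of lower genes and the median of the list rest in part on *Nox4*, *Duox2* and *Nox1* and were not calculated without them. *Xdh*, the xanthine oxidoreductase, had 2684, 2725 and 2839 counts with TNF-α and 49, 60 and 44 with EMO. The gap between the groups was wide (log2 fold change -5.68, SE 0.10), with an adjusted p of 6.0e-12 by edgeR's quasi-likelihood test. *Cyba*, the membrane subunit shared by NADPH oxidases, was lower (-1.92). *Nox1*, a catalytic subunit, was lower as well (-4.16, and -5.44 to -3.68 on leaving out 1 library). It shares 414 bases with *Cstf2* on the opposite strand. *Nox4*, another catalytic subunit, had 25, 19 and 32 counts with TNF-α and none with EMO, at least 8.05-fold lower. *Poldip2*, which encodes a NOX4-interacting protein, was higher (0.92).

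*Nos2* (ENSRNOG00000057443, chr10:66189786-66313190, plus strand) was low even with TNF-α. It had 39, 20 and 28 counts with TNF-α and 0 in each of the 3 TNF-α+EMO libraries. Normalized counts with TNF-α were 28.3 ± 9.42 (SD, n = 3), and with the limit of 3 counts per library *Nos2* was at least 9.22-fold lower with EMO. No p is given for it, since it passed the filter through the TNF-α libraries alone.

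Around *Nos2*, 19 genes for other nitric oxide synthases, arginine supply and cofactor supply were listed and 15 tested. Of these 6 were called higher, 8 lower and 1 not called, beside 39.4% and 41.4% of all genes, with a median log2 fold change of -0.37. *Nos3*, the endothelial synthase, went the other way from *Nos2*, with 2, 3 and 4 counts with TNF-α and 161, 209 and 281 with EMO. It shares 362 bases with *Atg9b* on the opposite strand, which had 5 to 879 counts, and which of the genes the reads came from was not tested. Genes around arginine were divided. *Arg1*, which competes with the synthases for arginine, had 377, 404 and 426 counts with TNF-α and 2, 2 and 3 with EMO. *Ass1*, which rebuilds the arginine precursor, had 45, 63 and 31 counts and none with EMO, at least 14.7-fold lower. *Slc7a1*, a cationic amino acid importer, was higher (log2 fold change 2.10). *Asl*, which completes arginine synthesis, was also higher (1.79), but its whole span lies inside *Crcp* on the opposite strand. *Ddah2*, related to the enzyme that clears methylarginine inhibitors, was lower (-3.87). *Gchfr*, the feedback regulator of tetrahydrobiopterin synthesis, had 264, 214 and 209 counts with TNF-α and 9, 5 and 6 with EMO. Of these genes *Arg1*, *Ass1* and *Gchfr* passed the low-count filter through the TNF-α libraries, and *Nos3* through the TNF-α+EMO libraries. *Gch1*, counted among the lower genes, also passed through the TNF-α libraries (14, 14 and 13 counts, against 6, 5 and 9 with EMO). *Arg2*, counted among the higher genes, was near the filter as well, with 8, 3 and 11 counts and 24, 24 and 12 with EMO.

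Over the 6 lists together, 27 of 66 tested genes were called higher and 29 lower, shares near the 39.4% and 41.4% of all genes.

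Gene length moved with the comparison and bears on the members, several of which are short. Over the genes with a mean of at least 100 normalized counts, the median log2 fold change was 0.73 for genes under 700 bases (476 genes), 0.58 from 700 to 1000 bases (486), 0.37 from 1000 to 2000 (2934), 0.04 from 2000 to 4000 (4104) and -0.58 from 4000 bases on (2263). *Sod1* has 656 bases, *Gpx1* 873 and *Prdx1* 889, in the ranges that were higher on average, while *Prdx3* has 1482, *Sod3* 1728, *Sod2* 2063 and *Cat* 2539. In the ranges under 700 bases and from 700 to 1000 bases, 62.6% and 60.3% of genes were called higher, against 25.0% of those of 4000 bases or more. The third TNF-α+EMO library deviated from the mean of the other 2 in the same way, with a median deviation of 0.29 on the log2 scale under 700 bases and -0.13 from 4000 bases on. In that library *Sod1* deviated from that mean by 0.58 on the log2 scale, *Ccs* by 0.69, *Prdx5* by 0.39 and *Prdx1* by -0.04, and 366 of 10263 genes deviated upward as much as *Sod1* or more.

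With each library's trend over length removed, an alternative added after the data were seen, all 8 calls kept their direction, but their sizes moved, and the median log2 fold change of the 8 was -0.42 (all genes -0.10). *Sod1* was then higher by 0.52 (SE 0.08) on the log2 scale, or 1.43-fold, *Prdx1* by 0.82 and *Prdx3* by 0.85, so that *Cat* (1.13) was the only one of the 4 still past 2-fold. *Gpx1* fell by 1.36 on the log2 scale, or 2.57-fold, and joined *Sod2* (-2.52), *Sod3* (-4.50) and *Nos2* past 2-fold. Among the other genes named above, the log2 fold change became 3.17 for *Slc7a11*, 2.80 for *Slc7a1*, -1.44 for *Txn1*, -2.52 for *Cyba*, -6.04 for *Selenop* and -5.65 for *Gchfr*, each a fold difference over 1.5 times as large as without the adjustment. Others became smaller, among them *Prdx5* (2.08), *Ccs* (0.82), *Slc31a1* (0.73) and *Poldip2* (0.54), each still called higher. The direction of each enzyme did not depend on this choice, though that of *Nos2* was fixed by the filter. The folds did depend on it, and not only those of short transcripts. *Prdx3*, of 1482 bases, went from 2.31 to 1.80-fold, and *Slc7a11*, of 8894 bases, from 4.66 to 9.03-fold. Whether the trend came from the cells or from the libraries was not tested.

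**Figure D4:**
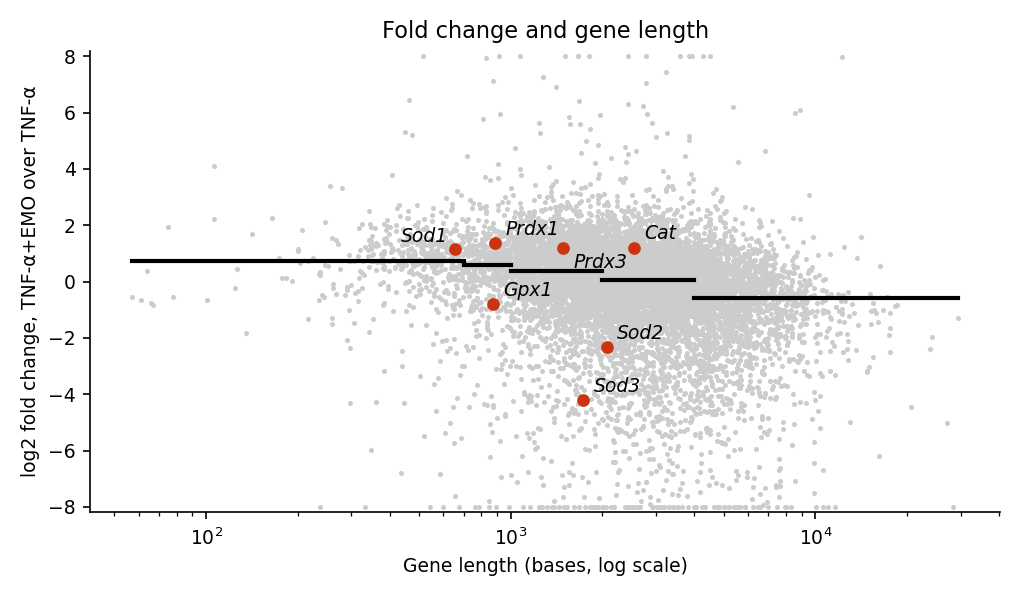
The log2 fold change of TNF-α+EMO over TNF-α against gene length (bases, log axis) for 10263 genes (grey, values beyond 8 drawn at the edge), with black lines at the medians of 5 length ranges, which go from 0.73 down to -0.58. Red points are 7 of the 10 genes: Sod1 and Prdx1 lie above the median of their range by less than Cat does, and Gpx1 lies below it.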

How the data were processed

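Poly(A)-selected RNA-seq libraries of rat RA-FLS were compared in the TNF-α and TNF-α+EMO groups that the sample labels give, 3 libraries each. The submitters' processing notes name FastQC, Trimmomatic, HISAT2 and the Rnor_6.0 build. The counting program, its strand setting and the annotation version are not given in the sources used here. The authors deposited raw counts per gene and library, gene lengths in bases, and FPKM values, which scale counts by length and mapped reads. The authors' deposited comparison gives for each gene a group mean score (scaled by size factors), the log2 fold change and p-values. Neither FPKM nor that comparison was used.

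TMM scaling and a robust quasi-likelihood fit without covariates (edgeR 4.0.16, R 4.3.3) were applied to the 13614 genes that reached 10 counts in 3 or more libraries, and p-values were adjusted over all of them (Benjamini-Hochberg). Family shares per library were compared by an exact two-sided permutation test. Each SE of a log2 fold change is its absolute value divided by the square root of the quasi-likelihood F statistic. Levels per kilobase use the deposited gene length. The alternatives were DESeq2 1.42.0, other scalings and count filters, a replicate block, each library left out and, added after seeing the data, an offset for each library's trend over gene length. Promoters came from a RefSeq table (GRCr8), matched by symbol.

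The 10 genes and the lists were chosen with earlier results of these data known. Besides the 10, the text names by rule, in each list, up to 3 genes with the largest increases and up to 3 with the largest decreases (called, mean of at least 50 counts, groups not overlapping), plus *Ccs*, *Srxn1*, *Txnrd1*, *Txn1*, *Gsr*, *Cyba*, *Nox4*, *Arg1*, *Ass1* and *Nos3*. *Gpx8*, *Txn2*, *Duox2*, *Gch1*, *Arg2*, *Dcn* and some markers were named after their values were seen. A gene that the rule would name is not reported here.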

Additional observations from a re-analysis of the deposited data

How the results depend on the processing

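All 8 tested genes kept direction and call under each alternative in which they were tested (111 fits over genes and settings), as did the other genes named by rule except *Pex13*, whose call was lost in 8 alternatives. *Nos2*, among the 8, passed the filter through the TNF-α libraries alone, so the filter had fixed its direction. The same holds for the other named genes that passed through a single group. Adjusted for gene length, an alternative added after seeing the data, 1 gene instead of 4 was past 2-fold higher and 4 instead of 3 past 2-fold lower. *Nos2* is among the 4. With that adjustment 2231 of all 13614 genes were past 2-fold higher and 3902 past 2-fold lower. Without TNF-α+EMO replicate 3 the count past 2-fold higher was 3, as *Sod1* dropped out. *Nos2* was not tested with a filter of at least 50 counts. Calculated on counts not divided by length, the *Sod1* share of the dismutases differed by 49.7 percentage points instead of 53.9 and the *Sod2* share by -43.3 instead of -47.5. The *Gpx1* share of the glutathione peroxidases differed by -0.033 percentage points, and by -0.078 to 0.021 on leaving out 1 library (0.021 without TNF-α+EMO replicate 3). Scaling by library totals only moved the median log2 fold change of all genes by -0.11. Replicate numbers did not pair the libraries (correlations of same-numbered libraries 0.019, -0.0068 and 0.068), and a replicate block called 10806 genes instead of 11008, with 4 of the 8 genes higher and 4 lower as before. Adjusted for gene length, the selenoprotein list had 5 genes higher and 4 lower instead of 3 and 3, beside 5035 higher and 5836 lower of all 13614 genes. Without a filter on low counts, edgeR's quasi-likelihood test gave *Gpx3* an adjusted p of 0.0011 and *Gpx4* one of 0.16. The low counts of *Nos2*, *Gpx3* and *Gpx4* limit what can be said of their folds.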
